A study of Homo sapiens with 4 samples.

Results

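Ribosome footprints of SW480 cells labelled as lacking IMP1 were compared with those of wild-type SW480 cells, gene by gene and by function. The 2 footprint libraries were joined by gene symbol and transcript, and 9794 of the 19192 genes listed had at least 50 reads over both libraries and were measured. SW480 is an established human colorectal adenocarcinoma line, and its labelled cell type is intestinal epithelial. The wild-type group carries no labelled alteration. The other group carries the genotype IMP1-/-, where IMP1, the product of the gene IGF2BP1, is a protein that binds RNA. Neither group carries a labelled treatment. Each group is 1 footprint library from 3 pooled culture plates, and an RNA library of the same genotype is used only beside it. With 1 library a side, no difference below has a replicate check, no test across cultures was possible, and genotype, clone and culture cannot be told apart. The second group is written as knockout-labelled.

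A translating ribosome shields a short stretch of mRNA from nuclease, and sequencing these stretches counts ribosomes on each mRNA. The share of all footprints that falls on a gene or a class of genes therefore approximates how the cell divides its ribosomes, and so its synthesis of protein, among products. IMP1 binds mRNAs in the cytoplasm and is known for effects on their stability, location and translation, in fetal tissue and in colorectal cancer among others. A share is relative: a class can gain share while the number of ribosomes at work in the cell is unknown.

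The footprint libraries held 3782874 counts for wild type and 3778316 for knockout-labelled, on 13144 and 13236 genes. The scaling ratio of the second to the first under trimmed-mean (TMM) normalization was 1.00. Genes under the minimum held 0.869% of counts in the former and 0.9103% in the latter. Of 10 colon epithelial markers 7 were measured, with 96015 and 76770 reads, wild type first here and below. The enterocyte markers LGALS4 and KRT20 had 0 reads in both libraries, and villin (VIL1) had 335 and 0. Most of the fall in the sum lay in KRT8 (36727 and 28904) and KRT18 (52179 and 39810), while CDH1 (88 and 275), KRT19 (5230 and 6166) and EPCAM (1348 and 1542) had more reads in the knockout-labelled library. Summed reads of markers of other tissues were 2 and 18 for mesenchyme (7 genes, none measured), 10 and 198 for leukocytes (7 genes, of which CD68 was measured and held 4 and 198), 6 and 51 for endothelium (4 genes, none measured), 328 and 440 for neurons (5 genes, 3 measured) and 56 and 169 for muscle (3 genes, of which DES was measured). The mesenchymal markers VIM and ACTA2 were chosen too but were not among the genes listed. The part of other cell types in the differences below was not tested. The 3 IMP family genes are given first because they bear on the labels. IGF2BP1 (chromosome 17, 48997412 to 49055650, plus strand, GRCh38) had 285 and 149 footprints, 1.91-fold lower (log2 −0.93, 95% counting interval −1.23 to −0.65), with 598 and 571 RNA reads. IGF2BP2 had 482 and 486 footprints and IGF2BP3 had 256 and 274, and neither passed 1.5-fold. Reads per gene do not show whether those left on IGF2BP1 came from an altered transcript.

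Between the libraries, 18.6 percentage points of all footprints changed place among genes. A gene was called when its scaled ratio was at least 2-fold and its exact 95% counting interval excluded no change. By that rule 881 genes (9.00%) were higher in the knockout-labelled library and 967 (9.87%) were lower, and 7946 were neither. The genes called higher gained 6.81 points and the genes called lower lost 8.14, so genes short of 2-fold carried most of the rest, with 11.4 points gained and 10.1 lost. At 1.5-fold, the rule used below for members of classes and families, 1861 genes were higher (19.0%) and 1971 lower (20.1%), and the median of all measured genes was −0.00 on the log2 scale. Footprint calls were more frequent among genes with few reads. With genes cut into 5 equal bins by read number, 32.1% passed 2-fold in the lowest bin and 13.4% in the highest.

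The 15 genes with the largest gains took up 3.31 points and the 15 with the largest losses gave up 3.40. LSM4, a subunit of the ring-shaped complexes that bind U6 RNA and decapping substrates, lost most of all. This gene (chromosome 19, 18306230 to 18323274, minus strand) went from 55150 footprints to 22962, or from 1.46% of the library to 0.608%, 2.40-fold lower. Its RNA had only 2341 and 1909 reads, so that LSM4 held 23.6 footprints per RNA read in wild-type cells and 12.03 after the labelled knockout. For the beta-actin gene ACTB those ratios were 1.23 and 1.85. The other 11 measured LSM genes together held 0.0545% and 0.0516% of footprints, a small fraction of the LSM4 share in either library. The largest gain was that of MTRNR2L11, a nuclear copy of mitochondrial ribosomal RNA sequence with a reading frame of 72 nt, which went from 14025 to 32657 (2.33-fold). MTRNR2L12, the gene with the most footprints in both libraries, had 58706 and 59533, and the 11 MTRNR2L genes held 2.90% and 3.60%. The handling of reads that map more than once and of molecular identifiers is not given in the sources used here, and the counts of LSM4 and the MTRNR2L genes may depend on it.

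Behind these came TXNIP (chromosome 1, 145992435 to 145996600, minus strand), an inhibitor of thioredoxin and of glucose uptake, which rose 8.17-fold from 2480 footprints to 20279. The hair keratin gene KRT81 rose 29.2-fold, from 520 to 15170. Asparagine synthetase ASNS rose 3.35-fold (3363 and 11264), the ER chaperone BiP (HSPA5) 3.197-fold (2445 and 7820), and the chromatin protein gene HMGA1 3.01-fold (2273 and 6849). Losses below LSM4 were spread over epithelial keratins, glycolysis and the cytoskeleton. KRT5 fell 6.25-fold (12590 and 2014), the calcium-binding protein gene S100A4 3.42-fold (8027 and 2351), the glutamine transporter gene SLC1A5 3.13-fold (8190 and 2617), alpha-actinin ACTN4 2.83-fold (12168 and 4300), and beta-catenin CTNNB1 2.65-fold (8613 and 3251). Several very abundant genes lost share without passing 1.5-fold. KRT18 had 52179 and 39810 footprints, KRT8 36727 and 28904, ACTB 30295 and 24914, and GAPDH 16761 and 11248. The scatter of footprint ratio against read number places these genes among all 9794.

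**Figure D1:**
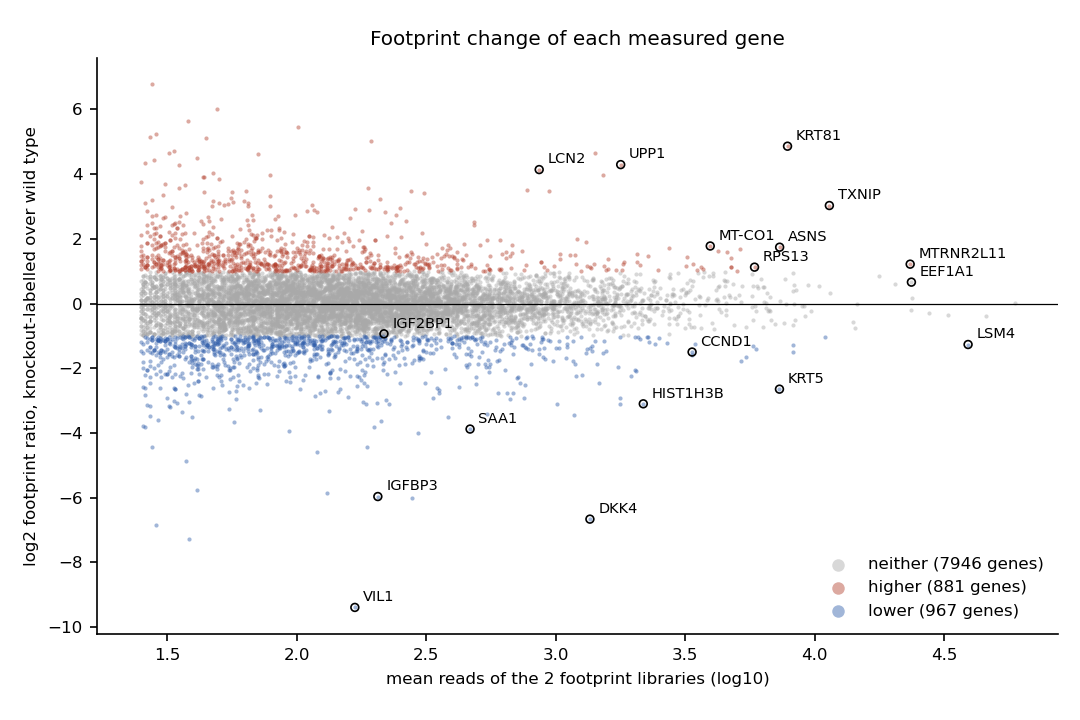
Footprint change of each measured gene. The x axis is the mean number of reads of both footprint libraries (log10) and the y axis the log2 ratio of knockout-labelled over wild type after TMM scaling; red points are the 881 genes called higher, blue the 967 called lower and grey the 7946 called neither. VIL1, with 0 reads in the knockout-labelled library, is drawn with a prior count of 0.5, and KRT81, TXNIP and LSM4 stand at high read numbers far from 0.

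By function, genes were sorted into 66 classes that covered 3590 measured genes and 64.6% and 63.9% of the footprints. A class share was called when it was at least 25% larger in one library than in the other with an interval that excluded no change, a bound chosen after the values were seen. By that rule 15 classes were higher and 15 lower. The translation machinery (cytosolic ribosomal proteins, initiation, elongation and termination factors and aminoacyl-tRNA synthetases, the mitochondrial ones included) went from 9.04% to 12.9% of footprints, a ratio of 1.43 (1.42 to 1.44). The machinery of cell division (replication-dependent histones, DNA replication, mitosis, cyclins and their kinases) went from 4.78% to 2.19%, 2.18-fold lower. Classes of the secretory pathway went from 3.34% to 4.24%. These 3 sums were formed after the values were seen. In RNA the translation machinery held 10.2% in both libraries, cell division went from 2.76% to 1.48%, and the secretory classes from 2.54% to 3.24%.

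**Figure D2:**
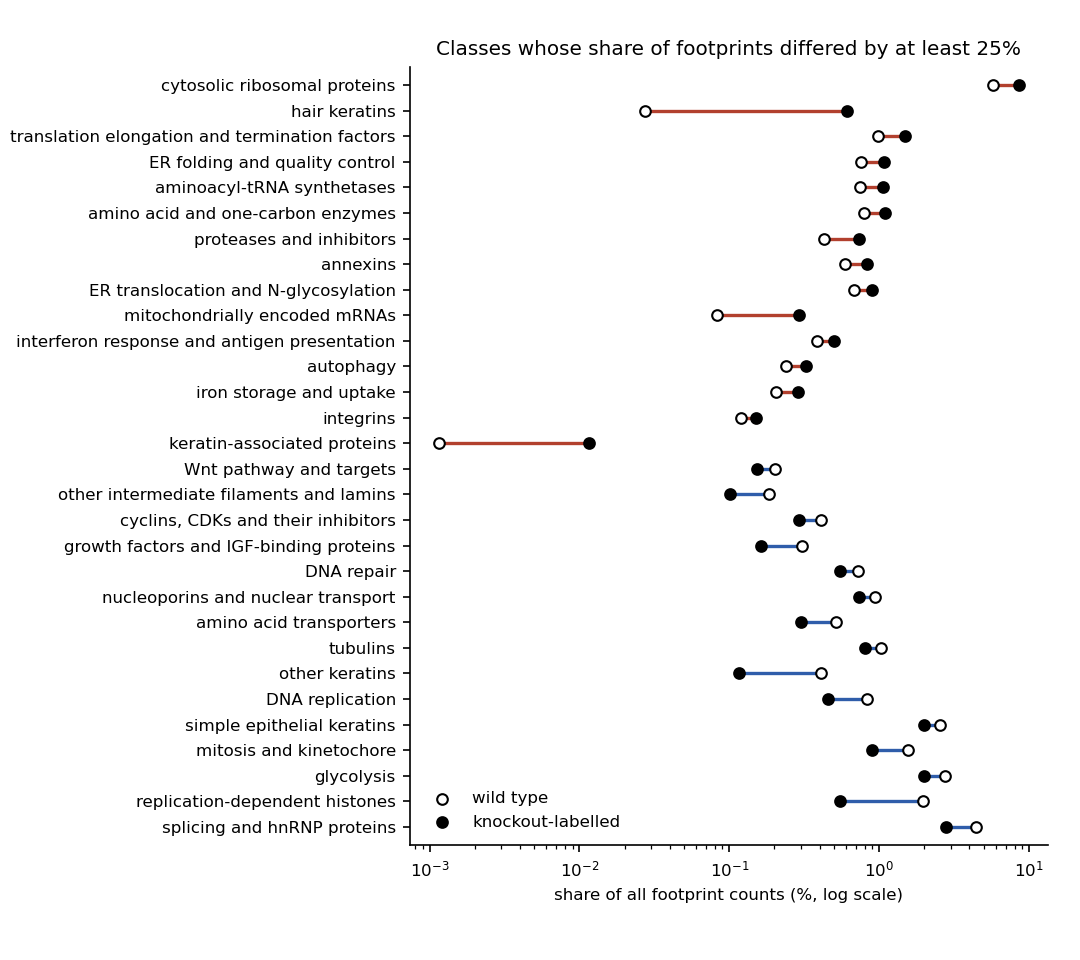
Share of all footprint counts held by each of the 30 classes whose share was at least 25% larger in one library than in the other, on a log percentage axis. White dots are wild type and black dots knockout-labelled, joined by red lines where the share rose and blue where it fell; cytosolic ribosomal proteins moved from 5.72% to 8.52% and replication-dependent histones from 1.97% to 0.549%.

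Cytosolic ribosomal proteins, which with ribosomal RNA build the ribosome itself, made the largest class gain, 2.80 points. Their share rose 1.49-fold (1.48 to 1.497). Of 88 measured genes 42 were higher at 1.5-fold and 1 was lower, with a median log2 ratio of 0.56. Across all measured genes the shares called were 19.0% and 20.1% and the median −0.00. Among the 4476 other genes in the same range of coding length, 75 to 1281 nt, 1000 were higher, 809 lower, and the median was 0.08. Length was not matched within that range: the median coding length was 786 nt for these genes and 453 nt for the ribosomal proteins. For the ribosomal proteins the RNA median was 0.01, 3 of the 88 being higher and 3 lower. Of all 9598 genes measured in both, 1469 were higher in RNA and 1682 lower. In 81 of the 88 the log2 ratio was larger in footprints than in RNA, a count that was not made for all genes. Both subunits moved: 28 of 52 large-subunit genes were higher (median 0.66) and 14 of 34 small-subunit genes (median 0.54).

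Many of these mRNAs begin with a cytosine followed by an unbroken run of pyrimidines at the transcription start, a feature through which translation of ribosomal protein and elongation factor mRNAs is known to be regulated. To let genes that rose be read beside genes that did not, start windows of some of each are shown here. They are 30-base windows of RefSeq (GRCh38.p14), with 15 bases on each side of the boundary at the annotated start. The capitals mark the pyrimidine run, a C followed by at least 4 letters that are C or T.
RPL22L1: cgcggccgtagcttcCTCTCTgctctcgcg
RPL26: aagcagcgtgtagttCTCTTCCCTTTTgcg
RPSA: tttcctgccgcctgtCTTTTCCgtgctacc
RPL24: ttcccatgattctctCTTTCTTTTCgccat
EEF2: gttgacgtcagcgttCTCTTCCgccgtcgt
EEF1A1: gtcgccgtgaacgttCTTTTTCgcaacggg
RPS9: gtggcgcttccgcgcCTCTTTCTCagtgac
RPLP2: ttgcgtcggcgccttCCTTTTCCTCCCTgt
RPL22: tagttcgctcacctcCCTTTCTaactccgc

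The windows lie, with their strand, for RPL22L1 at chr3:170870181-170870210 (minus), RPL26 at chr17:8383179-8383208 (minus), RPSA at chr3:39406705-39406734 (plus), RPL24 at chr3:101686704-101686733 (minus) and EEF2 at chr19:3985449-3985478 (minus). The others are EEF1A1 at chr6:73521018-73521047 (minus), RPS9 at chr19:54200843-54200872 (plus), RPLP2 at chr11:809952-809981 (plus) and RPL22 at chr1:6199581-6199610 (minus). The first 6 of these genes rose in footprints and the last 3 (RPS9, RPLP2 and RPL22) did not. Genes on chromosome 8 were left out of the choice. All 9 windows hold the run, but the ribosomal protein genes were picked for holding it and for their extreme footprint ratios. The windows therefore cannot compare genes with the run and genes without it. Of 27305 RefSeq starts 4.04% held it, and 8019 of the 9794 genes were matched to a start. Among 72 matched ribosomal protein genes 46 (63.9%) had the run, and their median log2 footprint ratio was 0.60, against 0.54 for the 26 without it. Among 62 matched translation factors, 12 had the run, with a median of 0.40 against −0.04. For matched genes that are not ribosomal proteins the medians were 0.03 with the run and −0.01 without, and 14.9% and 18.3% were higher. A match describes the letters at the annotated start only, and a start used in SW480 cells may lie elsewhere.

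Ribosomal protein genes were not uniform, as the ordered plot of their ratios shows. RPL22L1 (248 and 967 footprints) was 3.90-fold higher, whereas its paralog RPL22 had 1051 and 946. RPL39L (226 and 795) was 3.52-fold higher and its paralog RPL39 2.08-fold (1034 and 2148), while RNA of RPL39L had 427 and 329 reads. Of the 7 measured paralogs with an L suffix, 4 were higher and 0 lower. RPL7L1 (757 and 745), RPL26L1 (287 and 315) and RPS27L (246 and 216) were not called. RPL26, whose product sits near the exit of the peptide tunnel, went from 2061 to 6362 and its RNA from 2769 to 4166. RPS13 (3675 and 8026), RPL19 (2984 and 6516) and RPSA (1974 and 4379) rose above 2-fold with RNA log2 ratios of −0.07, −0.17 and −0.34. RPL23A was the 1 member called lower, with 4246 and 2579 footprints and an RNA log2 ratio of −0.63. RPS7 (7801 and 7677), RPS9 (2343 and 2280) and RPLP2 (1804 and 1712) stayed within 1.5-fold. Of the 9 measured members on chromosome 3, RPL22L1, RPL39L, RPL32, RPL24, RPSA, RPL35A and RPL15 were higher, and the summed share of the 9 rose 1.95-fold (1.91 to 1.99), against 1.46-fold for the 79 measured on other chromosomes. This split was chosen after the values were seen. Of all 526 measured genes on chromosome 3, 25.5% were higher and 14.4% lower at 1.5-fold, with a median of 0.19. Ribosomal protein genes have many processed pseudogenes of near-identical sequence, and the counting of reads shared with them is not given in the sources used here.

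**Figure D3:**
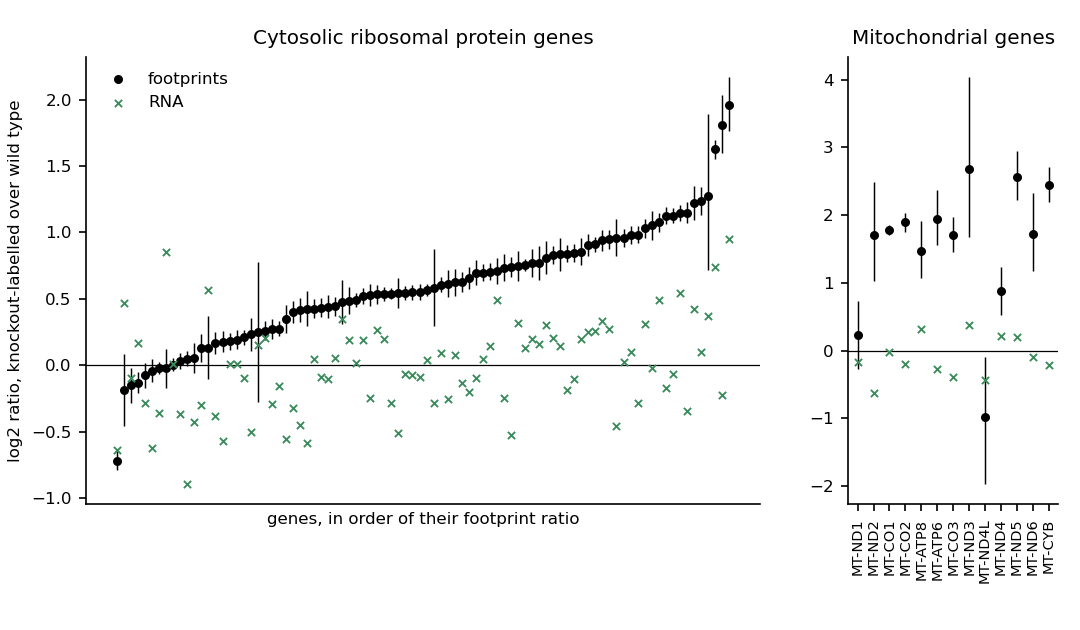
Log2 ratio, knockout-labelled over wild type, of the 88 cytosolic ribosomal protein genes in order of their footprint ratio (left) and of the 13 mitochondrially encoded genes in genome order (right). Black dots are footprints with 95% counting intervals and green crosses RNA; most dots on the left lie above 0 while the crosses scatter about it, and 11 mitochondrial genes stand well above their crosses.

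Among factors that work with the ribosome, elongation and termination factors and aminoacyl-tRNA synthetases rose in share, and initiation factors did not reach the 25% bound. Elongation and termination factors rose 1.52-fold, from 0.981% to 1.49%, carried by a few abundant genes: 5 of 15 were higher, 2 lower, and the median was 0.00. EEF1A1, which delivers aminoacyl-tRNA, had 18265 and 28933 footprints with RNA at 54491 and 45500. The translocase EEF2 had 5631 and 10853, and EEF1A2 and EEF1G had 2281 and 4995, and 1405 and 2678. The release factor gene ETF1 fell from 1640 to 1071. Initiation factors went from 1.59% to 1.85% (ratio 1.16) with 6 of 57 higher and 6 lower. EIF1, which monitors start codon choice, and its paralog EIF1B rose (3304 and 6687, 234 and 596), while the scaffold subunit EIF3B (2611 and 1549) and the cap-binding inhibitor gene EIF4EBP2 (191 and 72) fell. The 13 EIF3 subunits had a median of 0.11. Aminoacyl-tRNA synthetases, which charge tRNAs, rose 1.42-fold, with 14 of 38 higher (36.8%) and 2 lower and a median of 0.40. Of the 20 outside the mitochondrial set, 8 were higher and none lower (median 0.43). WARS led with 1273 and 4212 footprints, followed by SARS (1631 and 3328), LARS (1179 and 2427), MARS (1986 and 3486) and EPRS (907 and 1612), and these 5 were also higher in RNA. Of the 18 mitochondrial synthetases 6 were higher and 2 lower, the latter SARS2 (139 and 38) and LARS2 (246 and 95).

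Footprints on mRNAs encoded by the mitochondrial genome, which are translated by the ribosomes of the mitochondrion, rose 3.51-fold (3.37 to 3.66), from 0.0826% to 0.290%. Of 12 measured genes 11 were higher, with a median of 1.75, while the RNA median was −0.14 and 0 were higher in RNA. The cytochrome oxidase genes MT-CO1 and MT-CO2 had 1779 and 6113, and 555 and 2061. Cytochrome b (MT-CYB) had 150 and 817 with 6626 and 5151 RNA reads. MT-ND4 rose less, from 103 to 189, and MT-ND1 (64 and 75) was not called. MT-ND4L had 32 and 16 reads and was not measured. Classes encoded in the nucleus for the same organelle kept their share. The nuclear respiratory chain genes held 1.998% and 2.02% of footprints, with 11 of 105 higher and 10 lower, and mitochondrial ribosomal proteins 0.770% and 0.778%, with 12 of 78 higher and 11 lower.

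Both classes of the endoplasmic reticulum (ER), where secreted and membrane proteins are made and folded, rose. Genes of ER folding and quality control rose 1.44-fold in share (0.752% to 1.08%), and their median was 0.45. Of 53 members 17 were higher and 1 lower, and in RNA 26 were higher and 0 lower. HSPA5 had the largest gain of the class. The glucose-regulated HSP90B1 (2837 and 2937) and calreticulin CALR (2462 and 2202) stayed within 1.5-fold. ER translocation and N-glycosylation genes rose 1.33-fold, with 20 of 63 higher and 4 lower, among them the translocon subunit SEC61A1 (572 and 1498), the translocon-associated SSR3 (350 and 979) and the hexosamine enzyme GFPT1 (1123 and 2306). Vesicle coat and trafficking genes went from 1.91% to 2.26%, a ratio of 1.18 that stayed under the class bound, with 56 of 223 higher and 23 lower. Within them the COPI coat, which returns cargo from the Golgi to the ER, rose 1.72-fold in sum, with 5 of 8 subunits higher and 0 lower, and COPII had 3 of 10 higher and 0 lower. COPG1 had 1193 and 3336 footprints, COPB2 1786 and 2953, and the COPI recruiter ARF4 1014 and 2099. The clathrin heavy chain CLTC fell from 5163 to 3025.

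Several classes with secreted and surface proteins rose too. Proteases and their inhibitors rose 1.70-fold, from 0.430% to 0.729%, with 17 of 43 higher and 4 lower. Antitrypsin SERPINA1 had 360 and 1122 footprints, the metalloproteinase inhibitor TIMP1 1059 and 3046, and the mucosal inhibitor SLPI 124 and 1430. Granzyme B, GZMB, known from cytotoxic lymphocytes, had 29 and 348. Integrins had 8 of 16 higher and 3 lower and a share ratio of 1.25, which was 1.20 per codon. ITGA2 (137 and 491) and ITGB6 (14 and 116) rose and ITGAV (268 and 130) fell. Interferon response and antigen presentation genes rose 1.30-fold with 18 of 43 higher and 8 lower, a ratio that was 1.20 without the most abundant member and 1.08 per codon. The peptide-presenting HLA-B (889 and 2304) and HLA-C (1205 and 2910), which share sequence with each other, were both higher. Autophagy genes rose 1.36-fold with 11 of 39 higher and 5 lower, including MAP1LC3B, the LC3B protein of the autophagosome (509 and 1239). Annexins rose 1.40-fold, but 1.08-fold without ANXA2 (16106 and 24633).

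Amino acid and one-carbon enzymes rose 1.39-fold, from 0.790% to 1.096%. Without ASNS the ratio was 1.14. The class median was 0.11, and 8 of 42 members (19.0%) were higher and 1 lower, against 19.0% and 20.1% of all measured genes. The argininosuccinate synthase gene ASS1 rose (1286 and 2937), whereas the serine synthesis enzyme PHGDH had 1591 and 1451. Amino acid transporters fell to 0.583 of their share, from 0.514% to 0.2998%, with 7 of 23 lower and 4 higher, SLC1A5 and the leucine carrier SLC7A5 (2036 and 1120) among the lower. Without SLC1A5, the most abundant member, the ratio was 0.775, and the median of the class was −0.08. Genes of iron storage and uptake rose 1.41-fold, with 3 of 11 higher and 1 lower. LCN2, encoding lipocalin-2, had 92 and 1633, and the transferrin receptor gene TFRC had 1006 and 1644. The ferritin light chain FTL fell from 623 to 197. The heavy chain FTH1 had 4252 and 5103 footprints, under 1.5-fold, while its RNA went from 15615 to 58044.

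Genes of cell division fell. Replication-dependent histones, made in S phase to package new DNA, fell 3.59-fold in share, from 1.97% to 0.549%. All but 1 of 54 measured genes were lower, with a median of −1.98, and in RNA all 54 were lower with a median of −2.31. The exception was HIST4H4 (792 and 557). By type the share of H3 genes fell 6.35-fold, H1 4.58-fold, H2A 3.34-fold, H2B 2.60-fold and H4 2.48-fold. HIST1H3B had 3897 and 455 footprints and HIST1H4J 4841 and 2033. Histone copies of a type share sequence, so values of single genes are uncertain. SLBP, the protein that binds the stem-loop of these mRNAs, had 285 and 107. Histones made outside S phase did not move as 1: H3F3B had 1684 and 2220, H1F0 1462 and 2141, and H2AFZ 2108 and 1248.

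Mitosis and kinetochore genes fell to 0.575 of their wild-type share, from 1.57% to 0.901%. Their median was −0.79, and 81 of 145 were lower and 7 higher. The cyclin gene CCNB1 had 2268 and 784, and all but 1 of the 8 condensin subunits were lower, with NCAPD2 at 2304 and 827. DNA replication genes went from 0.832% to 0.453%. Of 57 measured, 35 were lower and 0 higher (median −0.77). The 6 helicase subunits MCM2 to MCM7 were all lower, from −1.60 to −1.03 on the log2 scale, and MCM7 had 5043 and 1662 footprints. Topoisomerase TOP2A had 3395 and 1610. Among cyclins, kinases and inhibitors 15 of 40 were lower and 4 higher. Cyclin D1 (CCND1) had 4960 and 1757, and without it the class ratio moved from 0.715 to 0.885. The inhibitor CDKN1A rose from 593 to 1077. Wnt pathway and target genes fell to 0.756 of their share, with 16 of 35 lower and 2 higher, including AXIN2 (612 and 96), APCDD1 (333 and 38), SP5 (254 and 40) and NOTUM (289 and 69). In DNA repair the share ratio was 0.757, and 28 of 88 genes were lower and 11 higher.

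Splicing factors and hnRNP proteins fell from 4.41% to 2.79% of footprints, 0.634 of the wild-type share, and 40 of 115 members were lower and 6 higher (median −0.37). LSM4 alone fell by 0.850 points. Without it the class went from 2.95% to 2.19%, a ratio of 0.741 (0.735 to 0.748). HNRNPA2B1 had 8262 and 3306 and the splicing regulator SRSF3 1705 and 980. Nucleoporins and transport receptors fell to 0.786 with 18 of 61 lower and 4 higher. Ribosome biogenesis genes went from 1.41% to 1.21%, short of the 25% bound, with a median of −0.16. Of 101 members 15 (14.9%) were lower and 3 (2.97%) higher, against 20.1% and 19.0% of all measured genes. Glycolysis genes went from 2.75% to 1.99% (ratio 0.723), with 7 of 23 lower and 2 higher. The fall was uneven along the pathway. LDHA (11745 and 4793), PKM (17885 and 10640) and TPI1 (7854 and 4799) were lower, while ENO1 (14569 and 14427) and PGK1 (6257 and 6460) hardly differed. Tubulins fell to 0.775 in share, or 0.825 without their most abundant gene. Of 20 measured tubulins 4 were lower (20%, against 20.1% of all measured genes) and 3 higher, with a median of 0.01. Actin cytoskeleton genes went from 4.23% to 3.54%, also short of the bound. Of 99 members 17 (17.2%) were lower and 11 (11.1%) higher, both under the shares of all genes. The actin-severing CFL1 had 14714 and 7165. Nuclear lamins and intermediate filaments outside the keratins fell to 0.552, with 4 of 6 lower and 2 higher. LMNB1 had 852 and 313 and NES 396 and 160. Growth factors and IGF-binding proteins fell to 0.532, with 14 of 33 lower and 7 higher.

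Other large classes kept their share. Proteasome subunits held 1.12% in both libraries, with 1 of 47 higher and 4 lower. Cytosolic and mitochondrial chaperones held 3.56% and 3.52%, with 10 of 95 higher and 13 lower, although HSPA8 rose from 12605 to 22861 and HSP90AA1 had 24972 and 22008. Zinc finger genes held 0.593% and 0.608%.

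Keratins, the intermediate filaments of epithelia, moved in opposite directions in neighbouring genes. Simple epithelial keratins, KRT8 and KRT18 among them, went from 2.53% to 1.99% (ratio 0.789, or 0.820 without the most abundant). Hair keratins rose 22.5-fold (21.1 to 23.9), from 0.0272% to 0.612%, with 6 of 6 higher. The 92 listed keratin-associated genes of the hair fibre rose 10.03-fold in share (7.35 to 14.01), from only 44 reads to 441. The 5 of them that were measured were all higher, and 1 of the 5 was measured in RNA. Stratified and other keratins fell to 0.281, with 9 of 15 lower and 4 higher. Without KRT5 (12590 and 2014), the most abundant of them, the ratio was 0.793. On chromosome 12 the 6 consecutive measured genes KRT81, KRT86, KRT83, KRT85, KRT84 and KRT82 went from 1018 footprints in sum to 23084. The next 9, KRT75, KRT6B, KRT6C, KRT6A, KRT5, KRT71, KRT74, KRT76 and KRT78, went from 14429 to 2536, 5.69-fold lower. KRT82 (11 and 376) and KRT75 (81 and 34) stand at the border of the runs. The median RNA log2 ratio was 3.75 over the first run and −1.59 over the members of the second that were measured in RNA, where KRT75 (76 and 87 RNA reads) was not lower. Elsewhere KRT16 (28 and 142), KRT17 (22 and 147) and KRT10 (29 and 142) rose, and KRT23 (1383 and 426) fell. KRT81, KRT83 and KRT86, as well as KRT6A, KRT6B and KRT6C, are near-identical copies, so reads may be split among them.

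Runs of at least 4 consecutive measured genes called the same way were counted along each chromosome. At 2-fold there were 6 higher runs and 7 lower. The lower ones were mostly histone clusters, with 16 genes in a row from HIST1H2BL to HIST1H2BO on chromosome 6 at 20998 and 5944 reads. At 1.5-fold there were 30 and 25, and 1 of the former and 4 of the latter held 10 or more genes. One long lower run held no gene family. It covered 14 measured genes from ZNF721 to NELFA near the start of chromosome 4, with 2647 and 1225 reads. Extended to the last lower run, 441695 to 4290169 (GRCh38), 24 of 31 measured genes in the region were lower and 0 higher. The footprint median there was −0.94 and the RNA median −0.89. The rest of chromosome 4 had a median of −0.16, with 71 of 268 lower and 35 higher. Members include the spindle protein gene TACC3 (364 and 80), the corepressor gene CTBP1 (312 and 135), SLBP and the methyltransferase gene WHSC1 (178 and 60). NOP14 (179 and 215) and HTT (184 and 222) were not lower. The region was delimited after the values were seen.

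**Figure D4:**
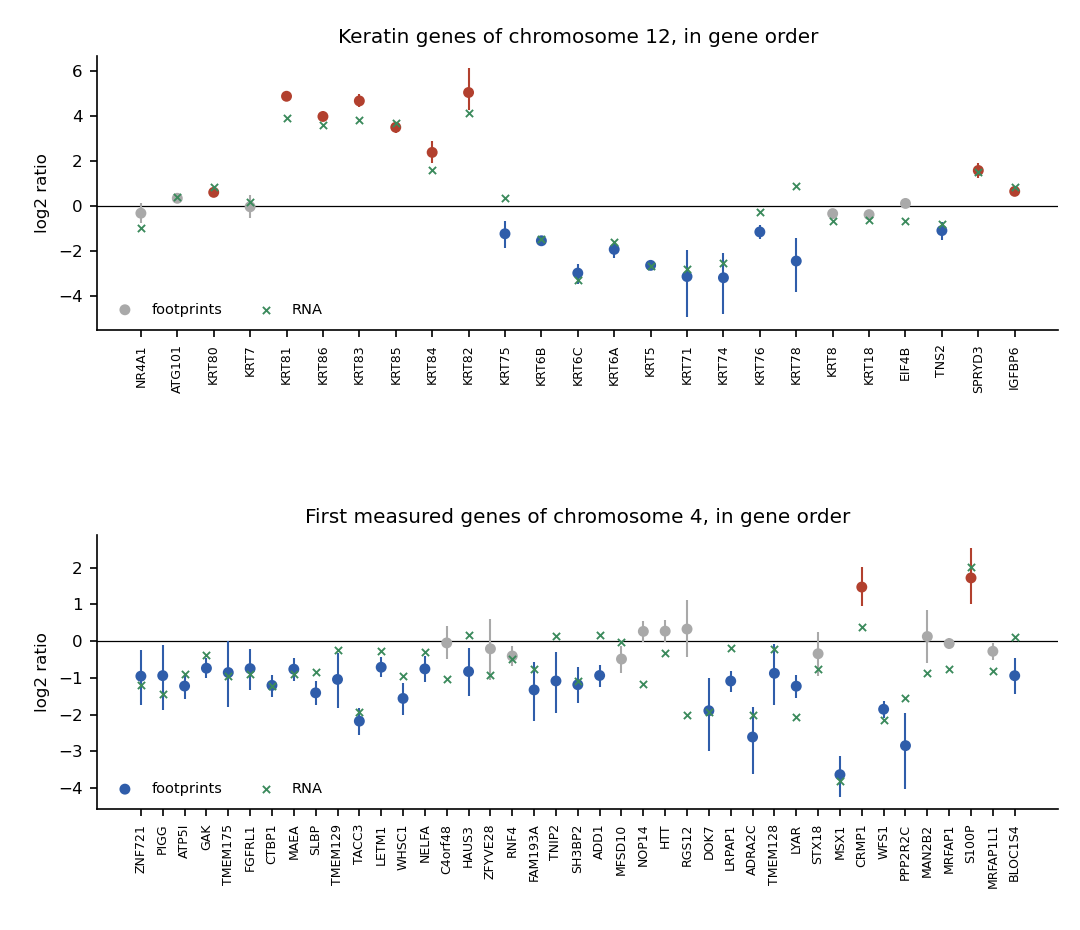
Log2 ratio, knockout-labelled over wild type, of measured genes in chromosome order, for the keratin cluster of chromosome 12 (top) and the first measured genes of chromosome 4 (bottom). Dots are footprints with 95% counting intervals, red or blue where called higher or lower at 1.5-fold and grey otherwise, and green crosses are RNA; 6 red hair keratins adjoin 9 blue keratins, and blue dots fill most of the start of chromosome 4.

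Families were also formed blind to function, from the letters of the gene symbol before the first digit. Of 306 families with at least 5 measured genes (3973 genes), 19 had at least 50% of members higher and 19 at least 50% lower. Of all measured genes 19.0% were higher and 20.1% lower. How many small families would reach 50% at those rates was not tested. On the lower side, beside histones and MCM, were the kinesin motors KIF (15 of 28 lower and 1 higher, median −0.65), ORC, RFC, SMC and HAUS (4 of 6, 3 of 5, 3 of 6 and 4 of 8 lower, with 1 HAUS gene higher). The chromobox genes CBX had 4 of 6 lower with a median of −0.63 and an RNA median of −0.09. On the higher side the claudins CLDN, the sealing proteins of tight junctions, rose in 6 of 8 members and fell in 1 (median 1.18, RNA median 0.66). CLDN7 had 484 and 1932 footprints, CLDN4 507 and 1249, CLDN1 83 and 278 and CLDN11, the lower one, 369 and 218. The RNase P and MRP subunit genes RPP had 5 of 7 higher and 0 lower (median 0.69, RNA −0.22), DHRS dehydrogenases 6 of 8 higher and 1 lower, the small integral membrane genes SMIM 6 of 11 higher and 0 lower, and GOLGA golgins 3 of 6 higher and 0 lower. The symbol roots also group unrelated genes, and some HSPA, SULT and SMIM members are near-identical copies.

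Outside the keratins, steep differences were seen in these genes. DKK4, a secreted Wnt antagonist, fell 103-fold from 2682 footprints to 26. VIL1, the bundler of microvillus actin, had 335 and 0, at least 112-fold lower against a floor of 3 counts, and 160 and 2 RNA reads. ASB4 (549 and 8), IGFBP3 (405 and 6) and the mitochondrial creatine kinase gene CKMT2 (258 and 4) fell 68.7-fold, 67.5-fold and 64.5-fold. The acute phase gene SAA1 had 874 and 59, and the prostaglandin dehydrogenase gene HPGD 230 and 9. On the other side the uridine phosphorylase gene UPP1 rose 19.7-fold (172 and 3388), LCN2 17.7-fold and the lysosomal glycoprotein gene CD68 49.5-fold (4 and 198). The integrin gene ITGAX had 0 and 55, at least 18.3-fold higher. Of these genes ITGAX was not measured in RNA, and the others were called the same way there.

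Of the 881 genes called higher in footprints, 826 were measured in RNA. Of these 255 (30.9%) were at least 2-fold higher in RNA too, 8 lower and 563 (68.2%) neither. The genes without an RNA call held 3.72 points of the gain and those with one 3.02. Of 967 genes called lower, 934 were measured in RNA, with 409 (43.8%) lower in RNA, 4 higher and 521 (55.8%) neither. Here the genes with the RNA call held 5.49 points of the loss and those without 2.61. By class medians in footprints and RNA, DNA replication stood at −0.77 and −0.83, mitosis at −0.79 and −0.81, splicing at −0.37 and −0.44 and ER folding at 0.45 and 0.63. Cyclins and their kinases had −0.46 and −0.21. As the plot of class medians shows, mitochondrially encoded mRNAs, ribosomal proteins and synthetases had higher footprint than RNA medians. The footprint ratio also varied with coding length. With genes cut into 5 equal bins by coding length, the medians from the shortest to the longest were 0.14, 0.07, −0.01, −0.08 and −0.12, and 25.6% of the genes in the shortest and 14.3% of those in the longest were higher at 1.5-fold. The part of coding length in the class results was not tested, beyond the comparison given for ribosomal proteins and the per-codon shares.

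**Figure D5:**
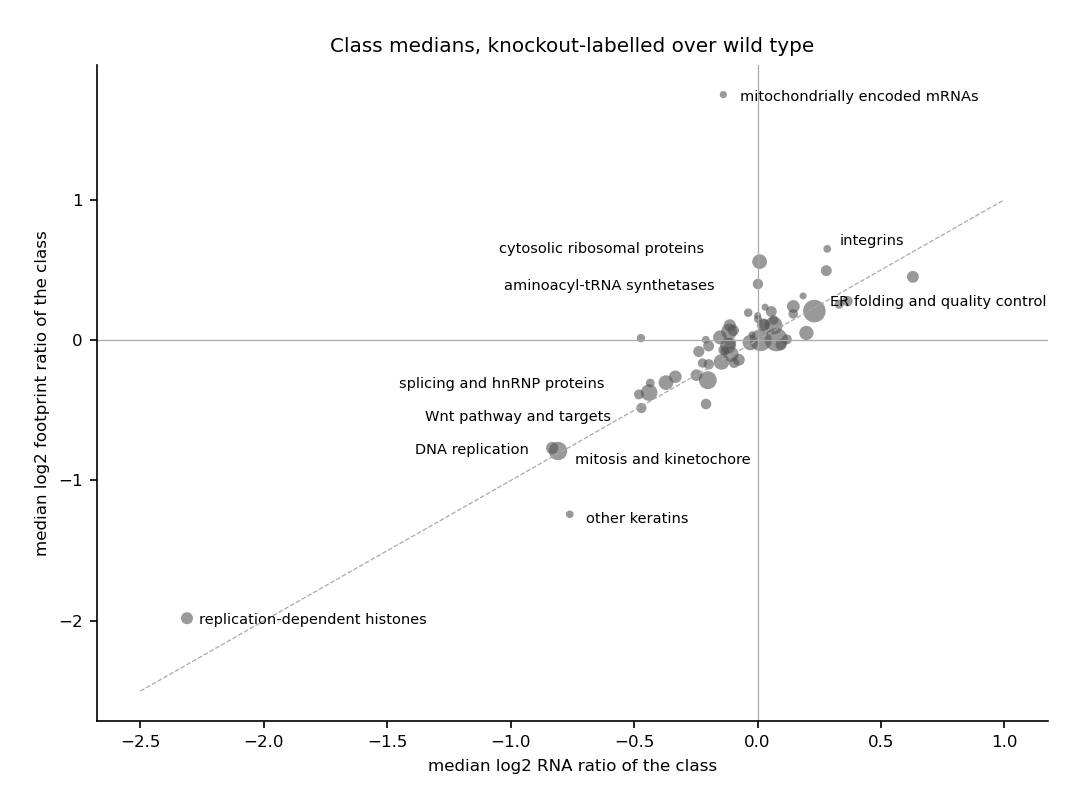
Median log2 ratio, knockout-labelled over wild type, in RNA (x axis) and footprints (y axis) for the classes with at least 10 measured genes. Each dot is a class with its area set by the number of genes, and the dashed line marks equal medians; replication-dependent histones lie near the line at −2.31 and −1.98, and mitochondrially encoded mRNAs far above it at −0.14 and 1.75.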

How the data were processed

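Footprint and RNA libraries were sequenced from 2 genotypes, 1 library each. One label gives SW840 as the line for wild-type RNA where every other label gives SW480, and it was analysed as SW480. The authors deposited raw counts of reads for each gene symbol, with 1 transcript per symbol and no normalization. Per the submitters' processing notes, the build was GRCh38 and the tools were HISAT2 2.1.0, Bowtie 1.1.2 and cutadapt 1.10. Which region was counted, how reads that map more than once were treated and whether molecular identifiers were collapsed is not given in the sources used here. Libraries of a kind were scaled by TMM in edgeR 4.0.16 (R 4.3.3). The scaling ratio was 1.00 for footprints and 0.900 for RNA. Log2 ratios used a prior count of 0.5. Intervals are exact conditional 95% (Clopper-Pearson) intervals from SciPy 1.17.1 and cover counting error only, since reads after PCR are not molecules. They do not measure the spread between cultures, and no p-value is given. Other steps used Python 3.11.15, pandas 2.3.3 and matplotlib 3.10.9. The calling step was tested on counts simulated with counting error only, as the intervals assume. Such a test cannot check for effects of PCR or the spread between cultures. Coordinates and coding lengths come from GENCODE release 29, which held 99.9% of the transcripts. Members, classes and lists were chosen with earlier results of these data known. Named genes are the IMP family, the 10 largest shares in either library, the 15 largest gains and losses of share, the 12 genes a side with the most extreme interval bound, up to 4 genes a class by change in share, and genes of described families and runs. HLA, chaperone, claudin and other genes outside this rule were chosen after their values were seen. Not every gene that the rule names is reported. Class shares were called at a difference of 25%.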

Additional observations from a re-analysis of the deposited data

How the results depend on the processing

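No paired analysis was possible because each genotype has 1 footprint library. For the same reason no library could be left out, and depth sets only the counting error. Counts of called genes depended on the minimum and the fold. The 881 genes higher became 368 at a minimum of 200 reads, 1499 with no minimum and 1861 at 1.5-fold, and the 967 lower became 470, 1524 and 1971. Runs of consecutive genes, 6 higher and 7 lower, became 30 and 25 at 1.5-fold, an alternative added after the data were seen. Both counts of genes stayed within 1.5 times under the 3 other scalings, a minimum of 20 reads, no interval rule, and without keratin, keratin-associated, histone and MTRNR2L genes, the last added after the data were seen. The 3 other footprint scaling ratios were 0.999, 1 and 0.986, near the 1.00 of TMM, so they could move few calls. With no interval rule the counts were again 881 and 967.

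Without their most abundant gene, share ratios were 1.14 for amino acid and one-carbon enzymes, 1.08 for annexins, 1.20 for interferon response and antigen presentation, 0.885 for cyclins, 0.820 for simple epithelial keratins and 0.825 for tubulins, all short of the 25% bound, and 0.793 for other keratins, which passed it. Per codon, integrins were at 1.20 and interferon response at 1.08. The cause was not tested. Of 262 class shares recomputed, 248 kept their call, 6 gained one and 8 lost it. None reversed. Of 461 class medians, 35 moved by over 0.1, 19 of them at a minimum of 200 reads. Of 1140 values for 285 named genes, 1136 kept their call. These values varied only the scaling, whose ratios were all near 1, and the prior count, so few calls could change.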
